A study of Mus musculus with 10 samples.

Results

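The 7 genes described here encode the IgG Fc receptors of the mouse, Fcgr1, Fcgr3, Fcgr4 and Fcgr2b, and 3 membrane adaptors, Fcer1g, Tyrobp and Hcst. They were picked by gene symbol rather than by a measured value, although earlier results of these data were known. All 7 were found among the 55487 gene rows of the expression table. Each was measured in 10 libraries of bulk RNA sequencing, 5 from Ptpn22 S452A mice and 5 from WT mice, all injected with MC38 colon carcinoma cells at 8 weeks of age. Tumours were taken at day 18 and digested with collagenase, and the labels describe the sorted cells as CD8+ T cells. Both groups carried the tumour, and the only labelled difference between them was the serine-to-alanine substitution in Pep, the tyrosine phosphatase encoded by Ptpn22. The design text of the series gives the substituted residue another number than the title does, and no strain, sex or batch is given. The mice are numbered 1 to 5 in each genotype, and libraries are called by those numbers here.

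Fc receptors bind the constant part of antibodies and let myeloid cells take up or kill antibody-coated targets. The activating receptors of the mouse, Fcgr1, Fcgr3 and Fcgr4, have little signalling capacity of their own and depend on the gamma chain Fcer1g, whose immunoreceptor tyrosine-based activation motif (ITAM) is phosphorylated by Src-family kinases and recruits Syk. Fcgr2b is the inhibitory receptor: its inhibitory motif (ITIM) recruits the lipid phosphatase SHIP-1, encoded by Inpp5d. Tyrobp (DAP12) is an ITAM adaptor for receptors such as Trem2, and Hcst (DAP10) carries a phosphatidylinositol 3-kinase binding motif in place of an ITAM and serves the receptor NKG2D, encoded by Klrk1.

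The RNA did not carry the markers of the labelled cell type at the level of those of macrophages. The summed level of 11 macrophage markers was 18556 to 24117 TPM (RNA abundance per transcript length, on a scale with the same sum in each library) in S452A libraries and 17685 to 24660 TPM in WT libraries. The summed level of 8 T cell markers, Cd8a and Cd8b1 among them, was 15.0 to 135 TPM in S452A libraries and 12.1 to 126 TPM in WT libraries. Averages over all libraries ran from 8.74 TPM (Mertk) to 10614 TPM (Apoe) for the macrophage markers and from 2.92 TPM (Cd3e) to 13.7 TPM (Trbc2) for the T cell markers. Of 8 NK cell markers 2 passed the filter on low values, with a summed level of 4.43 to 12.0 TPM in S452A libraries and 4.42 to 12.2 TPM in WT libraries; Klra4 was highest at 3.21 TPM and Klra8 lowest at 0.041 TPM. Neutrophil, mast cell, B cell and dendritic cell markers summed to at most 86.6 TPM in any library, and the neutrophil marker Ly6g was listed at 0 in all of them. Ptpn22 itself averaged 18.1 ± 4.84 TPM in S452A libraries and 14.7 ± 3.82 TPM in WT libraries (SD, n = 5 each); a codon change leaves no trace in these values, so they do not check the genotype labels. In bulk RNA, fewer cells of a type and less RNA per cell cannot be told apart, and this holds for every level below.

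None of the 7 genes differed between S452A and WT libraries in limma's test with Benjamini-Hochberg adjustment over 13930 tested genes. All 7 passed the filter of at least 1 TPM in at least 5 libraries. The count of 0 of 7 stands beside 0.00718% of all tested genes called, a single gene, the predicted gene Gm36079, which was higher in S452A libraries and is named only because it was alone. No member had an unadjusted p under 0.05, against 4.74% of all tested genes, and none had groups without overlap, against 0.646%. The 95% interval of the log2 difference lay within a doubling either way for all 7 members and for 86.9% of all tested genes. Of the members 4 had a negative difference, beside 53.4% of all tested genes, and their median difference was -0.05, against -0.02 over all tested genes. The values below are therefore mainly about levels, the balance between activating and inhibitory receptors, and how the genes varied between tumours.

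**Figure D1:**
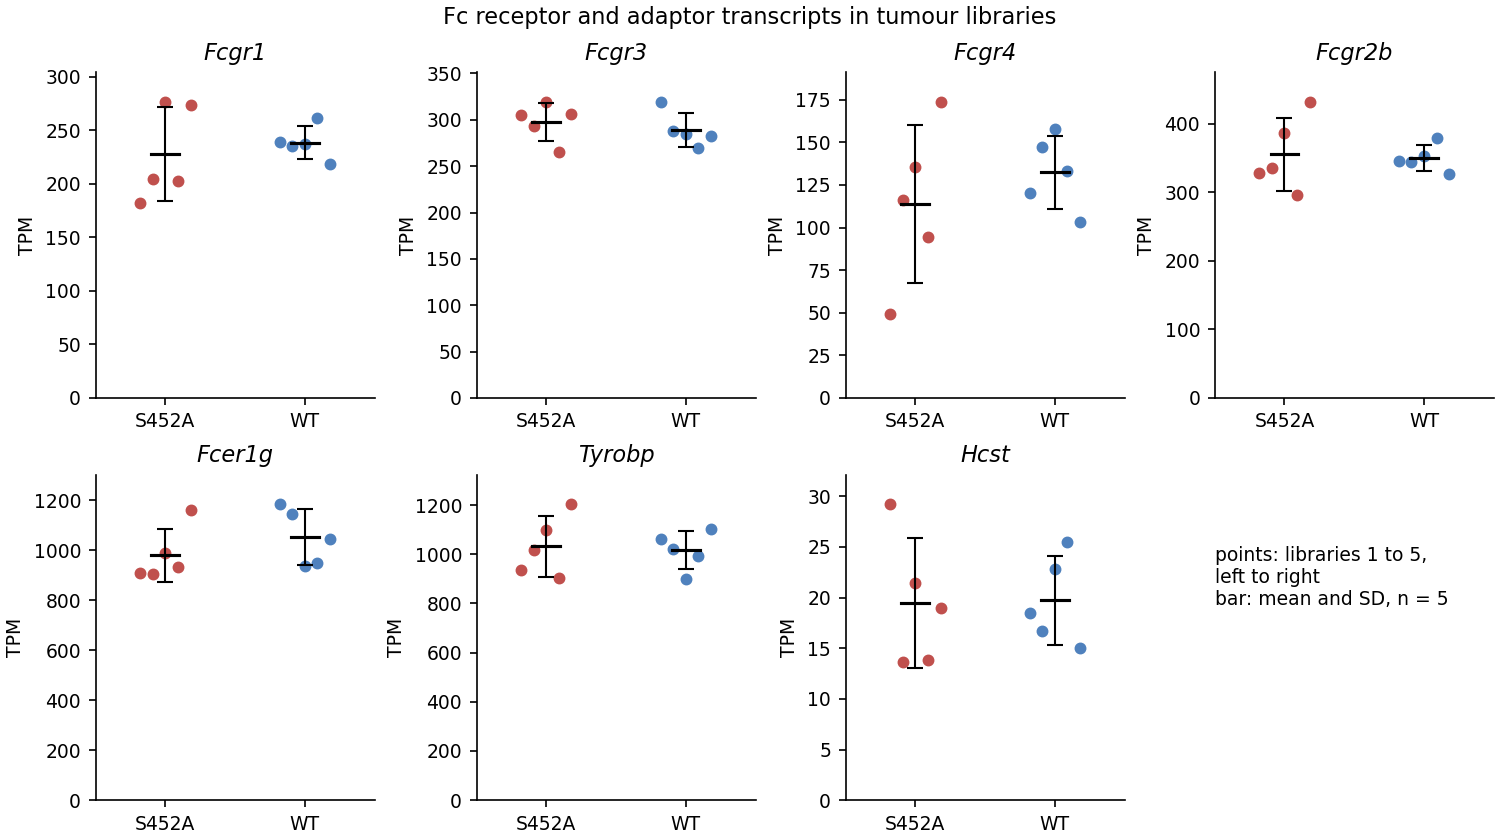
Level in TPM (linear axes from 0) of each of the 7 genes in the 5 S452A and the 5 WT libraries; each point is a library, the thick bar is the group mean and the error bar is 1 SD. The groups overlap for all 7 genes, and the Fcgr4 level of S452A library 1, 49.2 TPM, is the lowest of the 10.

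The promoter windows of the 4 receptors are printed because Fcgr1 varied together with Fcgr2b and with Fcgr4 across tumours, as described below. No other pair of the 21 passed that Pearson test. Those that did not pass include every pair with Fcgr3 and also Fcgr4 with Fcgr2b (r = 0.62, permutation p = 0.264 adjusted). Each window is 300 bases of RefSeq sequence (GRCm38.p6), 250 before to 50 after the start site, 5′ to 3′ on the gene's strand. A single start site was used per gene. The Fcgr3 and Fcgr2b windows lie wholly inside the gene spans given below, which end at 171064935 for Fcgr3 and 170976547 for Fcgr2b. The start sites used for these genes are therefore not the outermost ones. Capitals mark matches, on either strand, to the core of the myeloid factor PU.1 (GAGGAA), an ETS-IRF composite element (GGAA and GAAA with any 2 bases between), an interferon-stimulated element (GAAA and GAAA with any 2 bases between) or a gamma-activated site (TTCNNNGAA).
Fcgr1, chr3:96293920-96294219, minus strand: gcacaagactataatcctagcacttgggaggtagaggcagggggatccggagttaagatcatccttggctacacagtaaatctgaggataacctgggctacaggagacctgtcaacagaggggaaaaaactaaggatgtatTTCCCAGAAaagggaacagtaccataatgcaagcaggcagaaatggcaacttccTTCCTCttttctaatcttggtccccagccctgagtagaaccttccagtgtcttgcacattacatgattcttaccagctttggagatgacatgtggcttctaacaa
Fcgr4, chr1:171018676-171018975, plus strand: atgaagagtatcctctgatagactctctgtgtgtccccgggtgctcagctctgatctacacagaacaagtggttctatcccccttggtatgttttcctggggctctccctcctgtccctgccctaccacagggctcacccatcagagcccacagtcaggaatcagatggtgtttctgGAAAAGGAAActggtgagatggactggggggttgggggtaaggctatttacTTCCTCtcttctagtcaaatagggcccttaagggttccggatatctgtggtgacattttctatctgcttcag
Fcgr2b, chr1:170976022-170976321, minus strand: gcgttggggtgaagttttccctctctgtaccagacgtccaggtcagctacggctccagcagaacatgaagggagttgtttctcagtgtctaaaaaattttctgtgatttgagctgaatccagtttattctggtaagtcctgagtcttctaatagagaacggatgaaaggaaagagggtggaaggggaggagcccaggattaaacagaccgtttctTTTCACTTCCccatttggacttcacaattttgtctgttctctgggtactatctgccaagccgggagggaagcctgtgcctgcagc
Fcgr3, chr1:171059354-171059653, minus strand: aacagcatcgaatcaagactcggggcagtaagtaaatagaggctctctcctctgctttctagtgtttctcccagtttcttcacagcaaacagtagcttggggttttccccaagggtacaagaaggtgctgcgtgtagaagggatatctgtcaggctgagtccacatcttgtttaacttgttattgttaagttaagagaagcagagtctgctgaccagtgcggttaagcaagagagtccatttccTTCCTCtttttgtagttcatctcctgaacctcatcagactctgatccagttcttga

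The PU.1 core occurred once in the windows of Fcgr1, Fcgr4 and Fcgr3, and in 28.3% of 27025 mouse promoter windows of the same length. The gamma-activated site in the Fcgr1 window occurred in 8.47% of all windows, the interferon-stimulated element in the Fcgr4 window in 3.49% and the composite element in the Fcgr2b window in 2.79%. No 2 of these matches overlap. Fcgr1 and Fcgr3 shared a run of 14 bases, ttccttcctctttt, which includes the PU.1 core on the strand opposite to the printed one. This run, taken as the longest that the 2 windows share, was found in 3 of the 27025 windows, those of Fcgr1 and Fcgr3 among them. The windows of Fcer1g and Hcst held none of the 4 motifs in these letters, and Tyrobp was not matched in the sequence table. The motifs were chosen after the windows had been read, and a match is a description of the letters, not of binding.

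Fcgr1, the high-affinity IgG receptor (CD64), lies on chromosome 3 at 96282909 to 96293969 (GRCm38, minus strand), 7565826 bases from Ptpn22 on the same chromosome. It was listed at 182, 204, 276, 203 and 273 TPM in S452A libraries 1 to 5, and at 239, 236, 237, 262 and 219 TPM in WT libraries 1 to 5. The S452A values lay on both sides of the narrow WT range, with 3 below it and 2 above it. The means were 228 ± 44.1 TPM in S452A libraries and 238 ± 15.3 TPM in WT libraries (SD, n = 5 each), and the log2 difference was -0.08 (SE 0.13; limma adjusted p = 0.961). Without S452A library 1 the difference was -0.01.

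Fcgr3, a low-affinity activating receptor (CD16), lies on chromosome 1 at 171051174 to 171064935 (minus strand). It was the most even of the receptors, at 305, 293, 319, 265 and 307 TPM in S452A libraries and 319, 288, 284, 270 and 283 TPM in WT libraries. The highest library exceeded the lowest by 1.20-fold, and 4 of 5 S452A libraries lay above the WT median of 284 TPM. The log2 difference was 0.04 (SE 0.08; limma adjusted p = 0.969), and its 95% interval corresponded to 0.907- to 1.17-fold. Leaving out single libraries moved the difference between 0.02 (without S452A library 3 or WT library 4) and 0.08 (without S452A library 4 or WT library 1), and quantile normalization gave 0.0039.

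Fcgr4, an activating receptor for IgG2 antibodies, lies next to Fcgr3 on chromosome 1 at 171018920 to 171029761 (plus strand). It was the most variable receptor. Its levels were 49.2, 116, 135, 94.4 and 174 TPM in S452A libraries and 120, 147, 158, 133 and 103 TPM in WT libraries. S452A libraries held both the lowest value, in library 1, and the highest, in library 5, which differed by 3.53-fold. The log2 difference was -0.32 (SE 0.27, adjusted p = 0.952 in limma), with a 95% interval of -0.91 to 0.27. It was -0.05 without S452A library 1.

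Fcgr2b, the inhibitory receptor, lies on the same stretch of chromosome 1 at 170958617 to 170976547 (minus strand), and was higher than each activating receptor in all 10 libraries. It was listed at 328, 335, 386, 296 and 432 TPM in S452A libraries and at 346, 344, 353, 379 and 327 TPM in WT libraries. As with Fcgr1, the S452A values reached beyond the WT range on both sides. The means were 355 ± 53.7 TPM in S452A libraries and 350 ± 19.0 TPM in WT libraries, and they differed by 0.01 on the log2 scale (SE 0.11; adjusted p = 0.996 in limma), with an interval of 0.857- to 1.18-fold. The sign of this difference turned to -0.01 under quantile normalization. Fcgr2b and Fcgr3 transcripts share a stretch of 512 bases at 96.3% identity, so the split of reads between these 2 genes is less certain than that of the others; no member had a near-identical copy elsewhere by the criterion used.

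Fcer1g, the gamma chain of the activating receptors, lies on chromosome 1 at 171229572 to 171234365 (minus strand). Its levels were 906, 905, 990, 934 and 1160 TPM in S452A libraries and 1184, 1143, 937, 950 and 1043 TPM in WT libraries. In S452A libraries 1 of 5 values exceeded the WT median of 1043 TPM, and the ranges overlapped. The log2 difference was -0.10 (SE 0.10; limma adjusted p = 0.955; interval 0.796- to 1.09-fold). It was -0.16 without S452A library 5 and under quantile normalization, and -0.06 without WT library 1.

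Tyrobp lies on chromosome 7 at 30413760 to 30417585 (plus strand), and Hcst at 30417712 to 30419854 on the opposite strand; the 2 genes converge, 126 bases apart, without overlapping. Tyrobp was listed at 937, 1018, 1098, 903 and 1204 TPM in S452A libraries and at 1064, 1023, 901, 994 and 1103 TPM in WT libraries. These ranges nearly coincided apart from S452A library 5, and the log2 difference was 0.02 (SE 0.10; limma adjusted p = 0.993), with a sign that turned to -0.01 under quantile normalization. Hcst was far lower despite its place beside Tyrobp, at 29.2, 13.7, 21.4, 13.8 and 19.0 TPM in S452A libraries and 18.5, 16.7, 22.8, 25.5 and 15.0 TPM in WT libraries. Its log2 difference was -0.05 (SE 0.21; limma adjusted p = 0.989), and leaving out single libraries moved it between -0.21 and 0.06. The ratio of Tyrobp to Hcst was 57.3 ± 16.4 in S452A libraries and 54.1 ± 14.8 in WT libraries (SD, n = 5 each).

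TPM is scaled to transcript length, so the levels of different genes can be ordered. Averaged over all libraries, the order was Tyrobp (1025 TPM), Fcer1g (1015 TPM), Fcgr2b (353 TPM), Fcgr3 (293 TPM), Fcgr1 (233 TPM), Fcgr4 (123 TPM) and Hcst (19.6 TPM). Tyrobp and Fcer1g did not separate: Tyrobp was higher in 6 of 10 libraries, and their ratio ran from 0.895 to 1.12. Each later step in the order held in 10 of 10 libraries, and the smallest steps were Fcgr2b over Fcgr3, at 1.08- to 1.41-fold, and Fcgr3 over Fcgr1, at 1.03- to 1.68-fold. Tyrobp and Fcer1g stood at or above the 98.5th percentile of tested genes in every library, whereas Hcst ranged from percentile 53.7 to 71.5.

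The question set by the receptors' opposing roles is whether the balance of activating to inhibitory transcripts differed by genotype. The ratio of Fcgr1 to Fcgr2b was 0.554, 0.609, 0.716, 0.686 and 0.633 in S452A libraries, against 0.690, 0.685, 0.671, 0.690 and 0.668 in WT libraries. WT libraries kept this ratio within a very narrow band. Of the S452A values 3 fell below that band, and the value of library 3, 0.716, lay above it. The difference of the log2 ratios was -0.10 (2-sided exact permutation p = 0.183, 0.357 adjusted over the 3 ratios). Leaving out S452A library 1 gave -0.05, and leaving out S452A library 3 gave -0.14 (exact permutation p = 0.0317, 0.0952 adjusted). With 5 libraries against 5, the smallest p this test can give is 0.00794.

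The ratio of Fcgr3 to Fcgr2b was 0.848 ± 0.086 in S452A libraries and 0.828 ± 0.078 in WT libraries, a log2 difference of 0.03 (exact permutation p = 0.698, 0.698 adjusted). Its sign turned without WT library 4 (-0.02) and without S452A library 1 (-0.0019). The less certain split of reads between these 2 genes, described above, bears on this ratio. The ratio of Fcgr4 to Fcgr2b was 0.314 ± 0.096 in S452A libraries and 0.378 ± 0.056 in WT libraries, a log2 difference of -0.33 (exact permutation p = 0.238, 0.357 adjusted). That value rested largely on S452A library 1, where the ratio was 0.150, and was -0.08 without it. The 3 activating receptors summed to 1.80 ± 0.11 times the Fcgr2b level in S452A libraries (range 1.63 to 1.90) and to 1.89 ± 0.09 times in WT libraries (range 1.75 to 1.96). Of the TPM of the 4 receptors together, Fcgr2b made up 35.8 ± 1.47% in S452A libraries and 34.7 ± 1.07% in WT libraries, and Fcgr4, the smallest share, 11.1 ± 3.32% in S452A libraries and 13.1 ± 1.77% in WT libraries.

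**Figure D2:**
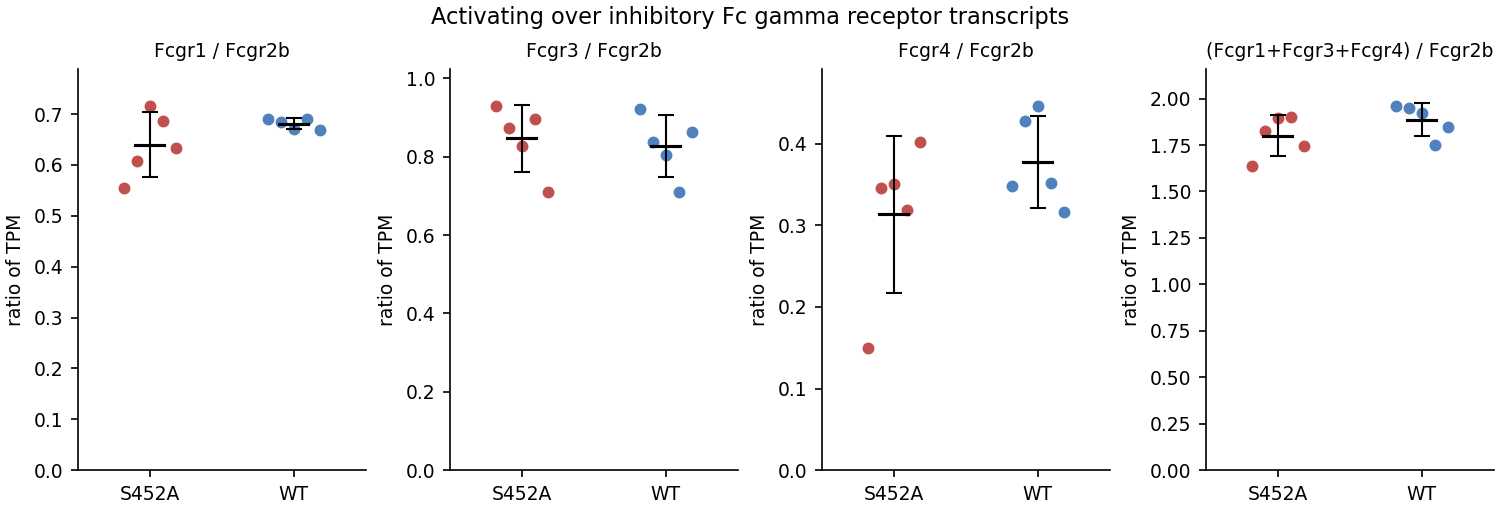
Ratio of TPM (linear axes from 0) of each activating receptor, and of their sum, to the inhibitory receptor Fcgr2b in the 5 S452A and the 5 WT libraries; each point is a library, the thick bar is the mean and the error bar is 1 SD. The ranges overlap in every panel, and the Fcgr1 ratio spans 0.554 to 0.716 in S452A libraries and 0.668 to 0.690 in WT libraries.

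The gamma chain was more abundant than the summed activating IgG receptors in all 10 libraries. Clec4e, another receptor that pairs with Fcer1g and is described below, was not part of this sum. It exceeded Fcer1g in S452A libraries 1, 3 and 4 and in WT library 4, and was lower in the others. Fcer1g was 1.54 ± 0.14 times the summed activating receptors in S452A libraries and 1.60 ± 0.18 times in WT libraries (SD, n = 5 each). The ratio of Fcer1g to Tyrobp, which compares the 2 ITAM adaptors, was 0.951 ± 0.059 in S452A libraries and 1.03 ± 0.08 in WT libraries, with overlapping ranges.

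The 7 genes did not vary as a single block. Of 21 pairs of members, 18 had a positive Pearson correlation of log2(TPM + 1) over the 10 libraries, and r ran from -0.23 to 0.84. Fcgr1 and Fcgr2b, an activating and an inhibitory receptor on different chromosomes, were the closest pair. Their r was 0.84 (permutation p = 0.00237, 0.0249 adjusted over 21 pairs) and Spearman's rho was 0.92 (permutation p = 0.00053, 0.0111 adjusted); without the 2 libraries farthest from the median of Fcgr1, S452A libraries 1 and 3, r was 0.91. Fcgr1 and Fcgr4 had an r of 0.83 (permutation p = 0.00128, 0.0249 adjusted) and a rho of 0.77 (0.0911 adjusted), with an r of 0.80 without the same 2 libraries, which no longer passed (0.140 adjusted).

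Fcgr3 did not follow Fcgr4, its neighbour on the chromosome (r = 0.01). Fcer1g and Tyrobp had an r of 0.68 (permutation p = 0.0320, 0.174 adjusted) and a rho of 0.70, and r was 0.53 without S452A library 5 and WT library 1. Fcgr2b and Tyrobp had an r of 0.67 (permutation p = 0.0331, 0.174 adjusted) that was 0.12 without S452A libraries 4 and 5, so it rested on those libraries. Computed on deviations from the genotype means, r was 0.87 for Fcgr1 with Fcgr2b and 0.82 for Fcgr1 with Fcgr4. Each genotype has 5 libraries, too few for a correlation of its own, so whether these relations hold alike in S452A and WT libraries was not tested. All these points share libraries and the fixed total of TPM in each.

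**Figure D3:**
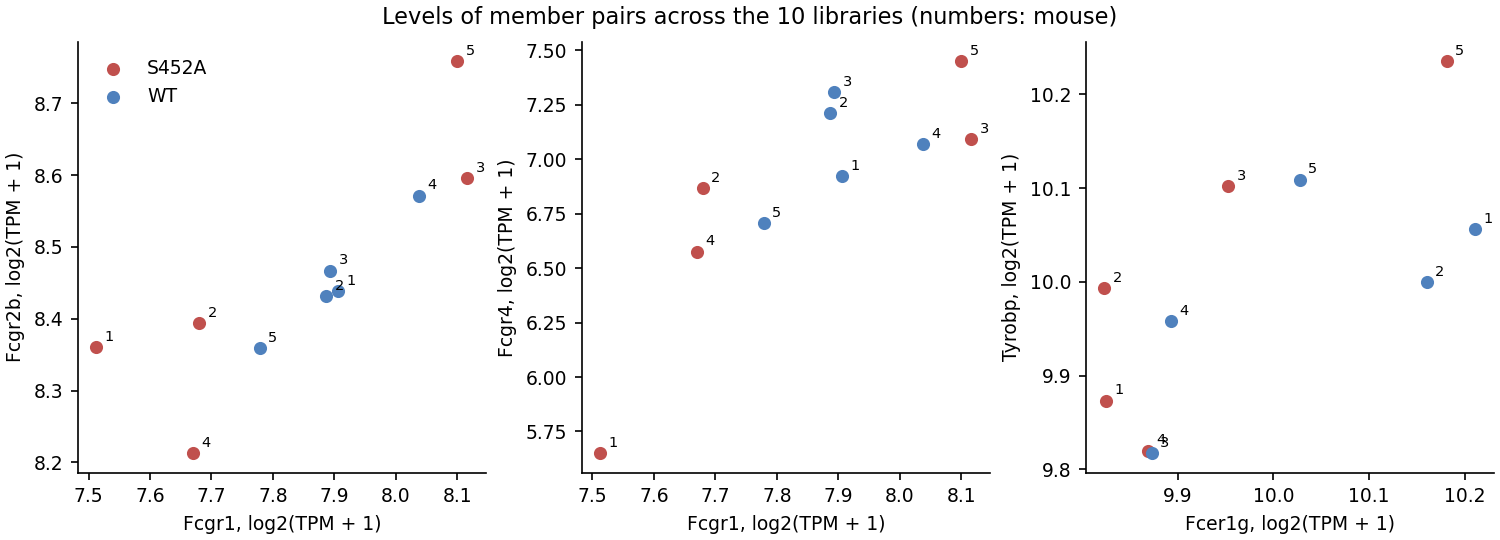
Levels of pairs of members on log2(TPM + 1) axes, each point being 1 of 10 libraries coloured by genotype. Fcgr1 rises with Fcgr2b (r = 0.84) and with Fcgr4 (r = 0.83) across the 10 libraries.

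T cell marker content varied widely between libraries of both genotypes, and its relation to the receptors is given beside theirs. The mean log2(TPM + 1) of the 8 T cell markers was 1.28, 2.54, 4.02, 2.14 and 3.33 in S452A libraries 1 to 5, and 3.23, 1.16, 3.88, 3.04 and 1.66 in WT libraries 1 to 5. Its correlation with Fcgr1 was r = 0.69 (permutation p = 0.0286) and rho = 0.76 (permutation p = 0.0145), which did not pass over 21 relations (adjusted 0.417 and 0.180), and r was 0.73 without S452A library 1 and WT library 2. For Fcgr2b and Fcgr4 r was 0.59 each. Of the 21 relations of the 7 members with the T cell, macrophage and NK cell marker means, 0 passed the adjustment by Pearson or Spearman, and 1 by Pearson and 2 by Spearman had an unadjusted permutation p under 0.05. The part of T cell content in the shared variation of the receptors was not tested.

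For each member the genes with the most similar pattern, at most 3, were taken from 7645 genes of at least 10 TPM on average, by the Pearson correlation of deviations from the genotype means over 10 libraries. For Fcgr4 they were Gbp9, an interferon-inducible GTPase (0.95), and Phf11a (0.95). For Fcgr1 they were Lmnb1, which encodes lamin B1 (0.95), the kinase gene Sik1 (0.95) and Cxcr4, a chemokine receptor (0.94). For Fcgr2b they were Gss, the glutathione synthetase gene (0.94), the kinase gene Araf (0.93) and Ifitm2, an interferon-induced membrane protein gene (0.90).

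For Fcgr3 the closest patterns were those of Blvra, which encodes biliverdin reductase (0.95), Wdr83 (0.94) and Mettl5, an RNA methyltransferase gene (0.90). For Fcer1g they were Tmem86a (0.92), Actr3, a subunit of the Arp2/3 complex that branches actin (0.92), and AB124611 (0.92). For Tyrobp they were Aif1, the macrophage and microglia marker IBA1 (0.90), Evi2a (0.89) and Ikzf1, the transcription factor Ikaros (0.88). For Hcst they were Copz1, a coatomer subunit (0.95), Gatad2b (0.91) and Hnrnpf (0.91). These are the top places among all genes compared, over 10 points, and are given as a description.

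S452A libraries were the more spread group for most of these genes. The SD of log2(TPM + 1) was larger in S452A than in WT libraries for 6 of 7 members, all but Fcer1g, against 58.7% of all tested genes. It was 0.28 in S452A and 0.09 in WT libraries for Fcgr1, 0.68 in S452A and 0.24 in WT libraries for Fcgr4, and 0.21 in S452A and 0.08 in WT libraries for Fcgr2b. For Fcgr3 it was 0.10 in S452A and 0.09 in WT libraries, and for Fcer1g 0.149 in S452A and 0.152 in WT libraries. For Tyrobp it was 0.17 in S452A and 0.11 in WT libraries, and for Hcst 0.44 in S452A and 0.30 in WT libraries. Without S452A library 1 it was larger in S452A libraries for 7 of 7 members, against 55.7% of all tested genes. The difference in spread was not tested.

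Genes related to these receptors and adaptors were read from 10 lists covering partner receptors, signalling and immunoglobulin chains, of which 76 genes passed the filter. Of these, 0 were called and 4 had an unadjusted p under 0.05, near the 4.74% of all tested genes; 43 had a positive and 33 a negative difference, with a median of 0.03 against -0.02 over all tested genes. Among receptors that pair with Tyrobp, 8 of 10 were tested. Trem2, a lipid-binding receptor of macrophages, was the highest, with 318 ± 39.9 TPM in S452A libraries and 296 ± 57.8 TPM in WT libraries (log2 difference 0.12; limma adjusted p = 0.958). Trem3 was low, with 3.47 ± 0.93 TPM in S452A libraries and 5.31 ± 1.12 TPM in WT libraries (log2 difference -0.50; limma unadjusted p = 0.0251, adjusted p = 0.952). Clec5a averaged 93.9 TPM in S452A and 79.9 TPM in WT libraries, and Sirpb1c 93.0 TPM in S452A and 94.5 TPM in WT libraries.

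Of 9 receptors that pair with Fcer1g, 4 were tested, and the difference was positive for all 4, with a median of 0.42; none passed the test. Clec4e (Mincle), a receptor for mycobacterial glycolipids, was listed at 1125, 685, 1550, 1360 and 877 TPM in S452A libraries and at 663, 800, 637, 1135 and 884 TPM in WT libraries (log2 difference 0.41; limma unadjusted p = 0.0869, adjusted p = 0.952). Clec4n (Dectin-2), a receptor for fungal mannans, was listed at 220, 123, 162, 124 and 153 TPM in S452A libraries and 120, 105, 81.1, 134 and 141 TPM in WT libraries (log2 difference 0.42; limma unadjusted p = 0.0413, adjusted p = 0.952). Clec4d averaged 268 ± 79.8 TPM in S452A libraries and 201 ± 76.8 TPM in WT libraries. Pira2, an immunoglobulin-like receptor, averaged 24.6 TPM in S452A libraries and 19.8 TPM in WT libraries. The groups overlapped for Clec4e, Clec4d, Clec4n and Pira2, and of these 4 only Clec4e, averaging 1119 TPM in S452A and 824 TPM in WT libraries, was near the level of Fcer1g itself. The mast cell and NK cell partners Fcer1a, Ncr1 and Klrb1c did not pass the filter. Klrk1, the partner of Hcst, averaged 20.2 ± 11.1 TPM in S452A libraries and 18.1 ± 5.09 TPM in WT libraries, close to Hcst in level (log2 difference 0.03; limma adjusted p = 0.996).

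Of the 7 kinases that act on or after the ITAM, 0 were called. Syk averaged 132 ± 38.2 TPM in S452A libraries and 105 ± 25.9 TPM in WT libraries (log2 difference 0.31; limma adjusted p = 0.952). Lyn, a Src-family kinase, averaged 113 TPM in S452A and 114 TPM in WT libraries. Of 23 adaptors and effectors 17 had a positive difference and 6 a negative one, with a median of 0.07. Malt1, the paracaspase that works with Card9 and Bcl10, had the smallest p of this list, with 161, 115, 202, 180 and 145 TPM in S452A libraries and 98.0, 118, 107, 148 and 95.6 TPM in WT libraries (log2 difference 0.49; limma unadjusted p = 0.0103, adjusted p = 0.952). The small GTPase gene Rac2 averaged 185 ± 28.9 TPM in S452A libraries and 221 ± 27.1 TPM in WT libraries.

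On the inhibitory side, Inpp5d, the phosphatase recruited by Fcgr2b, averaged 57.1 ± 10.1 TPM in S452A libraries and 57.8 ± 16.0 TPM in WT libraries (log2 difference 0.01; limma adjusted p = 0.998). Ptpn6, the phosphatase SHP-1 used by other ITIM receptors, averaged 135 ± 36.3 TPM in S452A libraries and 158 ± 12.6 TPM in WT libraries (log2 difference -0.27; limma adjusted p = 0.952). Of 14 other ITIM receptors, 0 were called, with 6 positive and 8 negative differences. Siglece, a sialic acid receptor, had the smallest p among them, with 7.47, 7.08, 8.93, 9.44 and 12.4 TPM in S452A libraries and 16.4, 18.8, 13.8, 15.0 and 9.78 TPM in WT libraries (log2 difference -0.64; limma unadjusted p = 0.00577, adjusted p = 0.952). All but 1 of the S452A values lay below all WT values. Cd72 and Lilrb4a were the most abundant, and each exceeded Fcgr2b in level: Cd72 averaged 1136 ± 334 TPM in S452A libraries and 1459 ± 273 TPM in WT libraries, and Lilrb4a 1196 ± 289 TPM in S452A libraries and 980 ± 106 TPM in WT libraries.

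The other Fc receptors had lower mean levels than the 4 IgG receptors in both genotypes, although single libraries of Fcrls overlapped with Fcgr4. Of 12 listed, 6 were tested and 0 called; 1 had a positive and 5 a negative difference. The highest was Fcrls, an Fc receptor-like gene, with 81.3 ± 41.3 TPM in S452A libraries and 106 ± 46.2 TPM in WT libraries (log2 difference -0.41; limma adjusted p = 0.952). Fcgrt, the neonatal Fc receptor heavy chain that recycles IgG, averaged 22.3 ± 4.94 TPM in S452A libraries and 28.4 ± 4.18 TPM in WT libraries (log2 difference -0.35; limma adjusted p = 0.952).

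**Figure D4:**
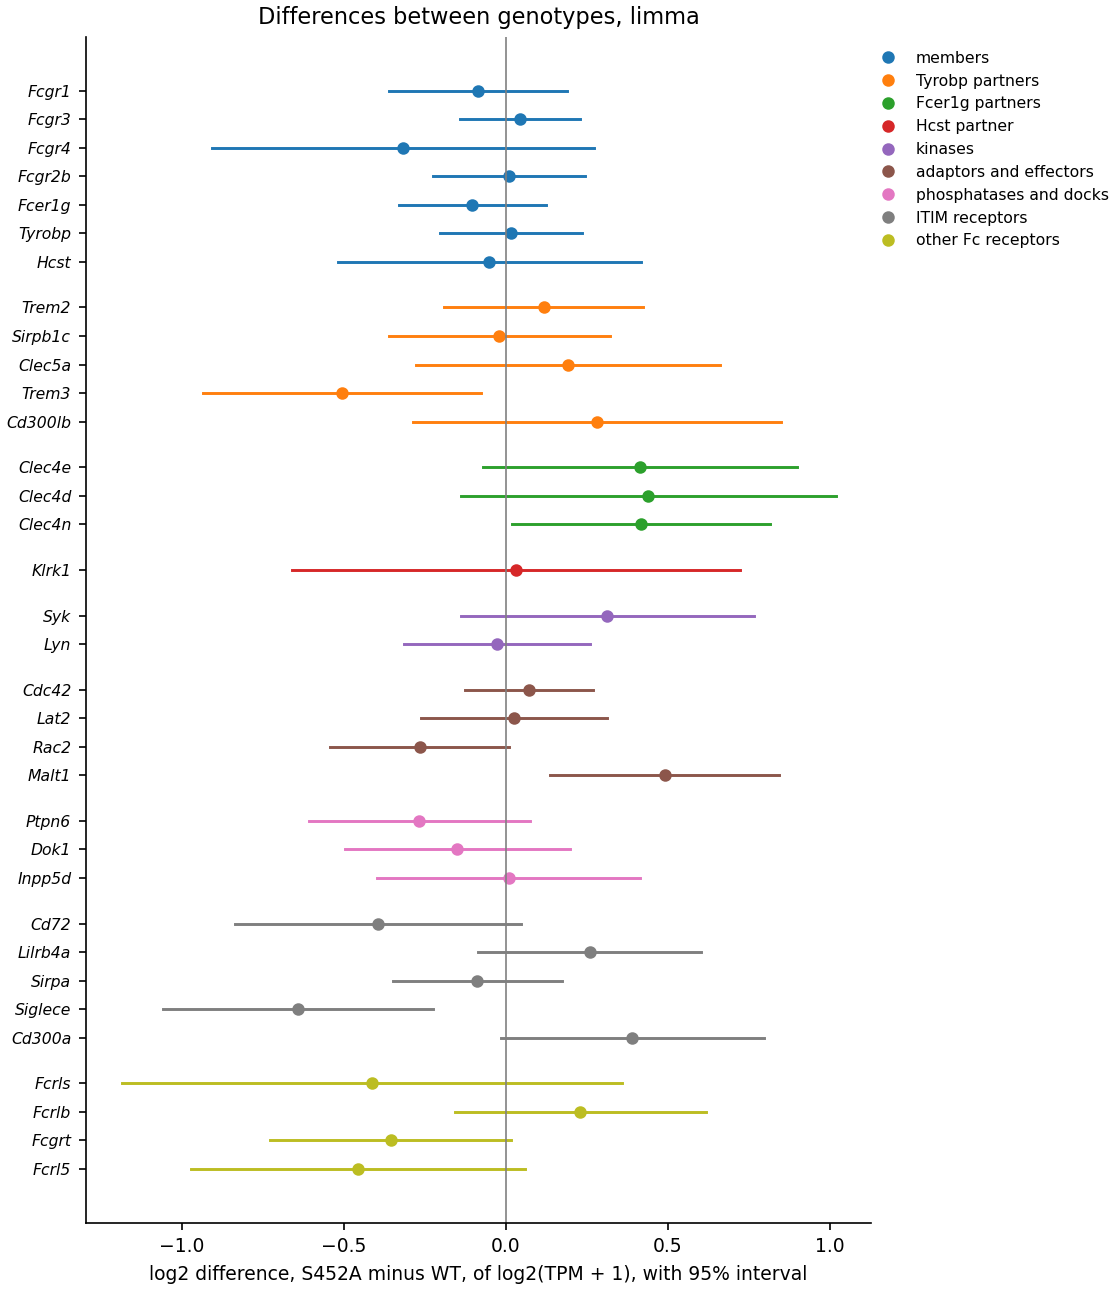
Log2 difference, S452A minus WT, on the log2(TPM + 1) scale with its 95% interval from limma for the 7 members and named genes of the pathway lists. All member intervals cross 0, and none of the genes drawn passed the adjusted test.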

How the data were processed

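Bulk RNA sequencing of 10 libraries was analysed, 5 S452A and 5 WT. RNA came from a small-scale Qiagen kit and went into directional NEBNext libraries with 40 ng of input, per the labels. STAR 2.7.9a, RSEM 1.3.0 and GRCm38.p6 are named in the submitters' processing notes; an annotation release is not given in the sources used here. What the authors deposited is a single table of gene TPM. TPM keeps no read counts, so depths are unknown and counting intervals cannot be formed. Columns were matched to samples through their descriptions. The 13930 genes that reached 1 TPM in 5 or more libraries, with 99.6% of the TPM, were tested on log2(TPM + 1), a scale that understates changes of low genes, with limma 3.58.1 in R 4.3.3 (trended eBayes, genotype as the only term, 2-sided, Benjamini-Hochberg, threshold 0.05). Differences are S452A minus WT, with 95% intervals. The 3 receptor ratios were compared by exact permutation over all 252 splits, and correlations by 100000 permutations. The scripts were tested on simulated data.

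The members, lists and tests were chosen with earlier results of these data known. Genes named beyond the members were, from each list, the 3 with the highest mean TPM and the 2 with the smallest p, some of which are summarised rather than named or are not reported here. Pira2, Fcer1a, Ncr1, Klrb1c, Gm36079, Igha, Jchain, Ighg2b, Ighg2c and Ighg1 fall outside that rule and were named after their values were seen. Positions are from GENCODE M21 (GRCm38), in which all 7 identifiers matched; 6 of 7 matched the RefSeq promoter table. Near-identical copies were sought with blastn 2.17.0 (at least 95% identity over 0.8 of the shorter transcript). The pseudocount, filters, scaling, a macrophage covariate, a replicate block and single left-out libraries were varied.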

Additional observations from a re-analysis of the deposited data

Results flagged for a closer look

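Of 42 groups of 5 libraries examined, 4 had a highest or lowest library far from the rest by Dixon's criterion; chance gives about 1 in 20. The log2 ratio of Fcgr4 to Fcgr2b was -2.74 in S452A library 1, against -1.65 to -1.31 in the other S452A libraries. The mean log2(TPM + 1) of the B cell markers was 1.91 in S452A library 5, against 0.63 to 0.83 in the other S452A libraries. The same mean was 1.59 in WT library 1, against 0.79 to 0.91 in the other WT libraries. The mean of the mast cell markers was 1.01 in WT library 2, against 1.51 to 1.66 in the other WT libraries.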

How the results depend on the processing

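Over 19 alternatives for each of the 7 members, 133 in all, 0 were called in limma (smallest adjusted p = 0.804), 121 kept the sign of the difference and 12 turned it. Quantile normalization turned Fcgr2b to -0.00847 and Tyrobp to -0.00569. Leaving out 1 library gave -0.0627 to 0.0737 for Fcgr2b, -0.0410 to 0.0627 for Tyrobp, -0.205 to 0.0557 for Hcst and -0.0204 to 0.0955 for the log2 ratio of Fcgr3 to Fcgr2b; none of these had passed a test. With a filter of at least 5 TPM in at least 5 libraries, limma called 0 of 9998 genes (460 at an unadjusted p under 0.05), against 1 of 13930 (660 unadjusted). Of the correlations between members, 1 passed without the 2 libraries farthest from the median, against 2 with all libraries; there Fcgr1 with Fcgr4 had an adjusted p of 0.140 (permutation test, r = 0.80, fewer libraries). Median rescaling moved values by at most 0.06 (log2). Same-numbered libraries did not deviate together (r from -0.15 to 0.07), so the numbers are not read as pairs; with them as a replicate block, limma still called 1 gene, and Fcgr4 stood at -0.32 (adjusted p = 0.985). TPM gives no depth, so precision rests on the spread between 5 mice a group.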

Other observations

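Transcripts of immunoglobulin chains were low and uneven between libraries. Of the heavy chains named here, only Ighg1, Ighg2b and Ighg2c are of IgG, which the 4 receptors bind. Igkc, the kappa light chain, was listed at 2.37, 0.00, 2.57, 1.62 and 108 TPM in S452A libraries 1 to 5, and at 33.4, 2.85, 33.8, 1.06 and 2.10 TPM in WT libraries 1 to 5. S452A library 5 was also highest for Igha, the IgA heavy chain, at 39.7 TPM. The other S452A libraries had at most 0.05 TPM of Igha, and WT libraries at most 1.62 TPM. For Jchain S452A library 5 had 9.42 TPM, the other S452A libraries at most 0.04 TPM and WT libraries at most 1.75 TPM. Ighg2c was listed at 0 in all S452A libraries, and at 4.74 and 5.23 TPM in WT libraries 1 and 2 with 0 in the other WT libraries. Ighg2b was listed at 0.33, 0.56, 0, 0 and 2.43 TPM in S452A libraries 1 to 5. In WT libraries 1 to 5 Ighg2b stood at 4.44, 0.1, 0, 0.22 and 0.34 TPM. Both genes were below the filter on low values, and Ighg1 was listed at 0 everywhere. Ighm, the IgM heavy chain, was present in all 10 libraries, at 35.9 ± 15.1 TPM in S452A libraries and 46.6 ± 11.1 TPM in WT libraries (SD, n = 5 each; limma adjusted p = 0.952). S452A library 5, with the highest Igkc, also had the highest Fcgr4, Fcgr2b and Tyrobp levels of the 10 libraries. Fcgr1, Fcgr3, Fcer1g and Hcst were highest in other libraries, and the relation of the members with Igkc was not tested.

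The ITAM chains of lymphocytes were low beside Fcer1g and Tyrobp. Cd3g averaged 10.1 ± 9.01 TPM in S452A libraries and 8.65 ± 6.41 TPM in WT libraries, and Cd79b, of the B cell receptor, 6.09 ± 4.34 TPM in S452A libraries and 6.48 ± 2.14 TPM in WT libraries. Of 6 such chains 5 were tested and 0 called by limma, and 0 had an unadjusted p under 0.05.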
